A study of Homo sapiens with 2 samples.

Results

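Kinetochore and spindle checkpoint genes, 40 named genes that build and police the attachment of chromosomes to the mitotic spindle, were examined in RNA from HEK293T cells. HEK293T is an established, fast-dividing human cell line of embryonic kidney origin that carries adenovirus sequences and expresses the large T antigen of SV40. Both RNA-seq libraries came from untreated cells labelled wild type, so there is 1 group of 2 replicates and no contrast between treatments. The series concerns the mapping of R-loops, which are RNA-DNA hybrids with a displaced DNA strand, and these libraries give RNA levels. The genes were chosen by symbol from a list of known kinetochore and checkpoint proteins, and all 40 matched 1 gene each among the 60664 genes of the files. The cell line entry of replicate 2 differs by 1 digit from its title and was read as HEK293T. Whether the 2 libraries stem from separate cultures is not stated in the labels, and their spread may therefore be technical.

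The kinetochore is a protein assembly built on each centromere. A specialised nucleosome holding the histone H3 variant CENP-A marks the site, and a constitutive network of CENP proteins (the CCAN) sits on it through the cell cycle. In mitosis the network recruits the outer kinetochore, made of the KNL1, MIS12 and NDC80 complexes, which grips microtubules. Unattached kinetochores start the spindle assembly checkpoint, in which MAD and BUB proteins hold back the anaphase-promoting complex until every chromosome is attached. The chromosomal passenger complex corrects faulty attachments. In dividing human cells many of these genes are transcribed mainly in the G2 and M phases.

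The libraries held 18011638 (replicate 1) and 18575058 (replicate 2) counts assigned to genes. CPM is the count of a gene scaled to the library total. A count of 0 leaves room for at most 0.167 CPM in replicate 1 and 0.162 CPM in replicate 2. The common biological coefficient of variation between the libraries was 15.6% (edgeR). Of 7 kidney progenitor, neuronal and mesenchymal markers, 7 were detected. Of 10 blood, endothelial, fibroblast and differentiated kidney markers 0 were detected, and CD3D, CD3E, TEK, COL1A2, DCN, AQP2 and SLC12A3 had 0 counts in both libraries. The figure after ± is an SD (n = 2 libraries). Intervals and floors account for counting error alone, because the labels name no molecular identifiers and PCR copies are not independent molecules.

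All 40 kinetochore and checkpoint genes were transcribed at a measurable level. Each reached 1 CPM or more in both libraries, a level that 65.9% of the 19890 protein-coding genes reached. Levels between genes are compared in TPM, which is the count divided by the exon length of the gene and scaled to a common total. The median kinetochore gene had 30.5 TPM (33.6 in replicate 1, 28.9 in replicate 2). The median protein-coding gene had 2.88 TPM, and the median of the 13112 detected ones was 8.52 TPM. At 10 TPM or more stood 33 of the 40 genes, or 82.5%, against 30.2% of protein-coding genes. Only KNL1 lay below the protein-coding median, and KNL1, CENPC, CENPP, INCENP and CENPI lay below the median of the detected protein-coding genes. Together the 40 genes took 0.330% of the counts in replicate 1 (exact 95% interval 0.328 to 0.333%) and 0.303% in replicate 2 (0.301 to 0.306%).

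The range within the set was wide. CENPW, a histone-fold subunit of the CCAN, was highest at 366 ± 11.9 TPM, and 98.7% of protein-coding genes had lower levels. ZWINT (187 ± 11.4), BIRC5 (134 ± 3.45), PMF1 (106 ± 4.82) and AURKB (95.4 ± 2.38 TPM) followed. KNL1, the outer kinetochore scaffold, was lowest at 2.66 ± 1.86 TPM, so the highest mean level was 138 times the lowest. The order of the 40 genes was close between the libraries (Spearman's rho 0.982 across genes, which are not independent replicates). Mean TPM fell with exon length (rho -0.60 across the 40 genes). Across 14547 genes with a mean count of at least 50 and a known GC content that rho was -0.57. For mean CPM, which has no length correction, the same values were -0.04 and 0.01. By mean CPM BIRC5 was highest at 253 and SKA1 lowest at 12.2, while CENPW was 5 of 40 and KNL1 39 of 40. Counts per gene do not show where along a transcript the reads lay, so the length correction in TPM was not tested.

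**Figure D1:**
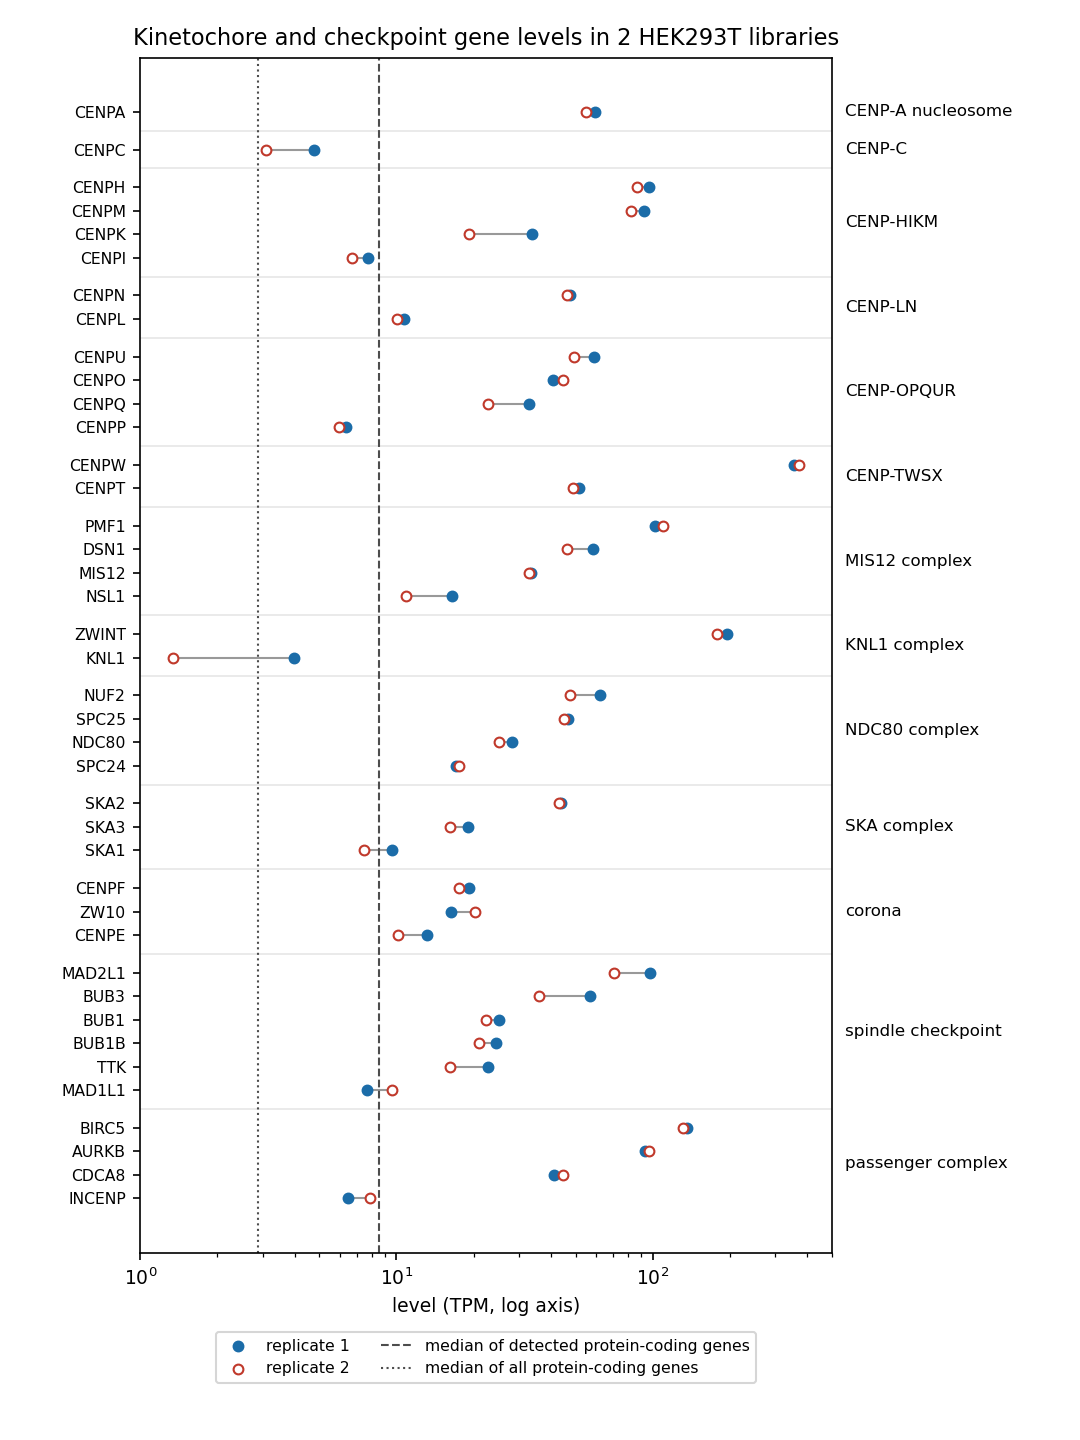
Levels of the 40 kinetochore and checkpoint genes in TPM on a log axis, grouped by assembly, with 1 point per library (filled, replicate 1; open, replicate 2) joined by a line. The dashed line marks the median of detected protein-coding genes (8.52 TPM) and the dotted line that of all protein-coding genes (2.88 TPM); CENPW and ZWINT lie far to the right and KNL1 and CENPC to the left, with KNL1 the most spread between libraries.

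Promoter windows, from 250 bases before to 50 after the annotated start site, were available for 33 of the genes (RefSeq, GRCh38.p14). Windows were not matched for BIRC5, TTK, KNL1, CENPH, BUB3, CENPL and CENPM. The cell cycle genes homology region (CHR), an element bound by the LIN54 subunit of the DREAM and B-MYB complexes that time late cell cycle transcription, was searched as the hexamers TTTGAA and TTCGAA on both strands. TTCGAA is its own reverse complement. CHR hexamers stood in 18 of the 33 windows, or 54.5%, against 13.5% of the windows of 15300 protein-coding genes and 10.7% of those of the 10374 detected ones. The difference was wider close to the start site. A CHR hexamer began within 50 bases of it in 16 of 33 windows, or 48.5%, against 3.71% of all windows. The CCAAT box, the binding element of NF-Y, stood in 20 windows (60.6% against 36.7%), and both elements together in 12 (36.4% against 5.71%). E2F core letters (TTCCCGC and TTGGCGC and TTCGCGC and TTGCCGC were searched, on either strand) stood in 12 windows (36.4% against 17.5%). Of the windows of detected genes, 37.1% held a CCAAT box and 21.4% held E2F core letters. Median GC content was 62.0% for the windows of the kinetochore genes and 63.0% for all windows. These matches describe letters only, and promoter activity was not measured.

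The windows of the highest and the lowest gene with a CHR hexamer, CENPW and CENPC, are shown beside those of the highest and the lowest gene without one, PMF1 and CENPP. Each runs 5′ to 3′ on the strand of the gene, with CHR hexamers and CCAAT boxes in capitals on either strand. The windows lie at chr6:126339865-126340164 on the plus strand (CENPW), chr4:67545454-67545753 on the minus strand (CENPC), chr1:156212757-156213056 on the plus strand (PMF1) and chr9:92325703-92326002 on the plus strand (CENPP).
CENPW: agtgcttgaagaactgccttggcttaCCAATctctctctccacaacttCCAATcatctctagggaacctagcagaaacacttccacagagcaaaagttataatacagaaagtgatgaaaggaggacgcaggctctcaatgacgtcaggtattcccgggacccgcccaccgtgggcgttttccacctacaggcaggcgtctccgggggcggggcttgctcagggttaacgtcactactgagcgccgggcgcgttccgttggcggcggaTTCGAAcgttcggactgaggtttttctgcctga
CENPC: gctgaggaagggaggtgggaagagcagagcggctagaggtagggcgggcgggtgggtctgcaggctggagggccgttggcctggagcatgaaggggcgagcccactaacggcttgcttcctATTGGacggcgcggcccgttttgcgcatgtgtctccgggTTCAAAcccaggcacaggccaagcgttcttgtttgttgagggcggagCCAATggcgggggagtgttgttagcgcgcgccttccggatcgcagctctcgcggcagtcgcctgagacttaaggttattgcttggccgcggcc
PMF1: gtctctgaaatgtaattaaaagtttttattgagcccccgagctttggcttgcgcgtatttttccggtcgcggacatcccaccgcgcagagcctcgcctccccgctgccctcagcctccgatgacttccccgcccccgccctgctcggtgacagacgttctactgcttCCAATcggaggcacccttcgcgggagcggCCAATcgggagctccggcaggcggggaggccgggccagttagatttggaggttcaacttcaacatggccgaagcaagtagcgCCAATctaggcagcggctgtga
CENPP: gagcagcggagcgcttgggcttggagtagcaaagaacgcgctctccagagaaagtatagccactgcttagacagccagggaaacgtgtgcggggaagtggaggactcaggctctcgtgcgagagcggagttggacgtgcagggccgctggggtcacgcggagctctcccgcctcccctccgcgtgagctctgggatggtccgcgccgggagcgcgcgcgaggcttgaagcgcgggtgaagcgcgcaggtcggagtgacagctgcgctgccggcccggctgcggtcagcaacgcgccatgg
In CENPW the hexamer begins 17 bases after the start site, downstream of a pair of CCAAT boxes near the far end of the window. In CENPC the hexamer begins at position -90 from the start site. PMF1 holds CCAAT boxes and no CHR hexamer, and CENPP holds neither.

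By assembly, CHR hexamers near the start site stood in 3 of 4 windows of the NDC80 complex (NDC80, NUF2 and SPC25), in 2 of 3 of the SKA complex (SKA1 and SKA3), in 3 of 4 of the checkpoint genes with a window (BUB1, BUB1B and MAD2L1) and in 2 of 3 of the passenger complex (CDCA8 and INCENP). The MIS12 complex had them in 0 of 4 windows, though 2 of those held a CCAAT box. The CENP-OPQUR group had them in 1 of 4 windows (CENPO), the corona in 1 of 3 (CENPF), the CENP-T and CENP-W pair in 1 of 2 (CENPW) and the CENP-HIKM group in 0 of 2. CENPA, CENPN and ZWINT, each the only window of its assembly, held one, and CENPC did not. With so few windows each, no difference between assemblies was tested. The 16 genes with a hexamer near the start had a median of 42.8 TPM, and the 17 without had 26.4 TPM. The 18 genes with a hexamer anywhere in the window had a median of 34.7 TPM, from 3.94 to 366. The 15 without had a median of 28.0 TPM, from 6.15 to 106, and the ranges overlapped. Of the 33 start sites, 23 lay within 100 bases of the gene start in the deposited coordinates, while those of NUF2, SPC25 and CENPA lay 55378, 22941 and 21767 bases away.

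**Figure D2:**
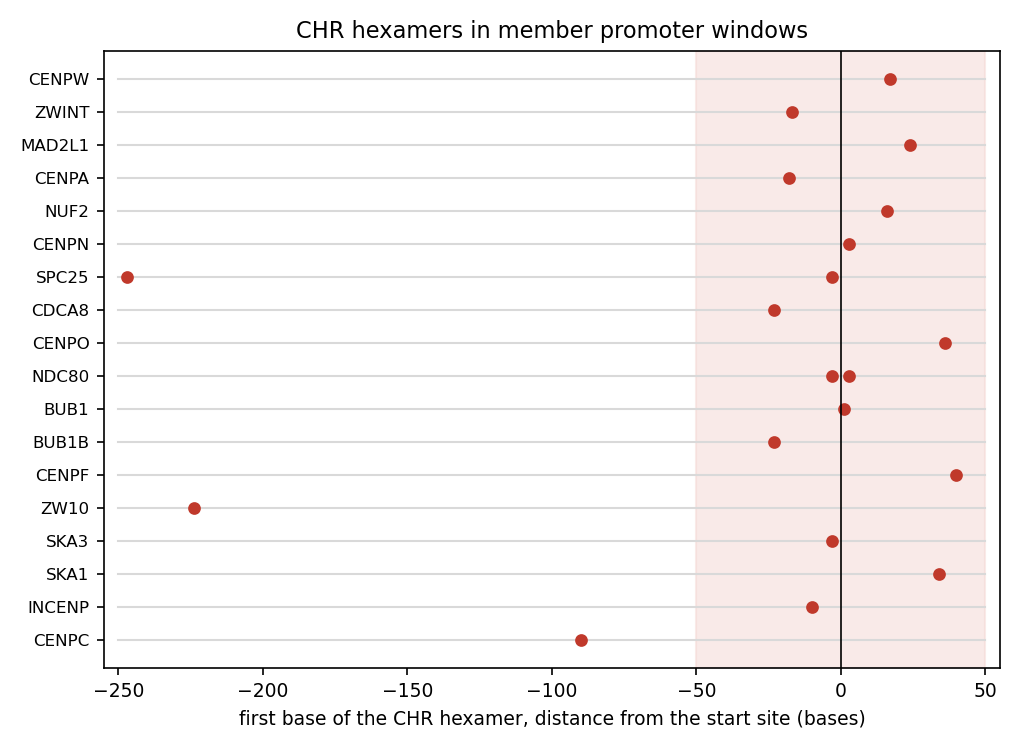
Position of each CHR hexamer in the 18 promoter windows that hold one, as the distance in bases of its first base from the start site (0), with genes ordered from the highest mean TPM at the top. The shaded band marks 50 bases on either side of the start site; hexamers of 16 genes begin inside it, and those of ZW10 and CENPC lie only upstream.

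At the centromere itself, CENPA stood well above its reader CENPC. CENPA, on chromosome 2 from 26764289 to 26801067, had 1012 counts in replicate 1 (56.2 CPM) and 1002 in replicate 2 (53.9 CPM), or 59.5 and 54.7 TPM. CENPC binds the CENP-A nucleosome and links it to the MIS12 complex. It had 353 counts in replicate 1 (19.6 CPM) and 248 in replicate 2 (13.4 CPM), or 4.76 and 3.11 TPM. Both libraries of CENPA lay above both of CENPC. CENPC is among the longest genes of the set, with 8496 exonic bases, and its rank by CPM, without length correction, was 37 of 40, against 39 of 40 by TPM.

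The remaining CCAN genes spread over more than an order of magnitude. In the CENP-HIKM group, which joins CENP-C to the rest of the network, CENPH had 96.7 TPM in replicate 1 and 87.2 in replicate 2, and CENPM 92.8 and 82.6. CENPH lay above CENPM within each library, though the values overlapped between libraries. With the longest coding transcript CENPM had 107 TPM and CENPH 102, so their order is not resolved. CENPK had 33.7 and 19.1 TPM and CENPI, on chromosome X, 7.75 and 6.72 TPM. CENPH therefore exceeded CENPI 12.7-fold in mean TPM, or 9.48-fold when the length of the longest coding transcript was used instead. Without length correction, in mean CPM, it exceeded CENPI 4.04-fold. CENPN, which recognises CENP-A in the nucleosome, had 47.5 and 46.1 TPM, and its partner CENPL had 10.7 and 10.04 TPM, 4.53-fold less. Other genes share 23.1% of the exonic bases of CENPN.

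In the CENP-OPQUR group CENPU, the docking subunit for Polo-like kinase PLK1, led with 59.3 TPM in replicate 1 and 49.3 in replicate 2. CENPO had 40.8 and 44.6 TPM, CENPQ 33.1 and 22.9 TPM, and CENPP 6.35 and 5.96 TPM. Of the exonic bases of CENPO, 31.6% lie in other genes too, mainly ADCY3 on the opposite strand. For CENPP the share is 43.2%, mainly in IPPK on the opposite strand, so both values are uncertain. CENPT and CENPW form a histone-fold pair, and CENPT also binds the NDC80 complex. CENPW, on chromosome 6 from 126340115 to 126348875, had 2661 counts in replicate 1 (148 CPM, 357 TPM) and 3001 in replicate 2 (162 CPM, 374 TPM). CENPT had 2539 counts (141 CPM, 51.4 TPM) in replicate 1 and 2605 (140 CPM, 49.0 TPM) in replicate 2. By mean CPM, CENPW exceeded CENPT 1.10-fold. The exon lengths are 854 bases for CENPW and 5660 for CENPT, and 20.2% of the CENPT bases lie in other genes too. The difference in mean TPM was 7.28-fold, and it was 3.44-fold with the longest coding transcripts.

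The MIS12 complex links the inner to the outer kinetochore. PMF1 led it with 103 TPM in replicate 1 and 109 in replicate 2, followed by DSN1 (58.4 and 46.2), MIS12 (33.4 and 32.8) and NSL1 (16.4 and 10.9 TPM). No neighbouring pair in this order overlapped between its libraries. The place of NSL1 rests on the length chosen: its deposited exons sum to 13867 bases and its longest coding transcript to 2317. With the transcript length NSL1 had 56.9 ± 16.1 TPM and stood second in the complex. PMF1 shares 23.3% of its exonic bases with the read-through gene PMF1-BGLAP, which had 1824 and 2246 counts.

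ZWINT and KNL1, partners in the KNL1 complex, were furthest apart of all. KNL1 is the scaffold whose repeats, phosphorylated by TTK, recruit BUB1 and BUB3, and ZWINT binds it and helps to recruit the corona. KNL1, on chromosome 15 from 40594020 to 40664342, had 355 counts in replicate 1 (19.7 CPM, exact 95% interval 17.7 to 21.9) and 129 in replicate 2 (6.94 CPM, 5.80 to 8.25). ZWINT, on chromosome 10 from 56357227 to 56361273, had 4042 counts in replicate 1 (224 CPM) and 3992 in replicate 2 (215 CPM). KNL1 had 3.97 TPM in replicate 1 and 1.34 in replicate 2, and ZWINT 195 and 179 TPM. The ratio of ZWINT to KNL1 was 49.1 in replicate 1 and 133 in replicate 2, so its size depends on the library. The deposited exon length of KNL1, 10250 bases, is close to that of its longest coding transcript, 9573 bases. Without length correction ZWINT still exceeded KNL1 16.5-fold in mean CPM.

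The NDC80 complex, the main microtubule coupler, held its 4 subunits within 4-fold of each other by mean TPM. NUF2 had 62.5 TPM in replicate 1 and 47.7 in replicate 2, SPC25 46.8 and 45.0, NDC80 28.3 and 25.1, and SPC24 17.0 and 17.5 TPM. NUF2 and NDC80 form the microtubule-binding end and differed 2.07-fold in mean TPM. SPC25 and SPC24 form the end that docks on the kinetochore and differed 2.66-fold. The highest mean was 3.19 times the lowest, or 4.44 times with the longest coding transcripts.

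The SKA complex, which keeps kinetochores on shrinking microtubule ends, ran from SKA2 (43.8 TPM in replicate 1 and 43.1 in replicate 2) through SKA3 (19.0 and 16.2) to SKA1 (9.57 and 7.49 TPM). SKA1 had the fewest counts of the set in replicate 1, 242, and 204 in replicate 2. Among the corona proteins CENPF, a large coiled-coil protein, had 19.2 and 17.6 TPM. The kinesin CENPE had 13.1 and 10.1 TPM. ZW10, a subunit of the RZZ complex that also tethers Golgi vesicles in interphase, had 16.4 and 20.3 TPM. CENPF and ZW10 overlapped between libraries, and the order of the corona genes differed between them. CENPF, with 11673 exonic bases, had 106 ± 3.12 CPM and was 10 of 40 by CPM against 27 of 40 by TPM.

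Checkpoint genes were led by the effector MAD2L1, which in its closed form binds and inhibits CDC20. MAD2L1, on chromosome 4 from 120055623 to 120066858, had 4687 counts in replicate 1 (260 CPM, 97.4 TPM) and 3671 in replicate 2 (198 CPM, 70.8 TPM). BUB3, an adaptor that binds KNL1, had 57.2 and 36.0 TPM. The kinase BUB1 had 25.2 and 22.3 TPM, BUB1B, a subunit of the mitotic checkpoint complex, 24.5 and 20.9, and the kinase TTK 22.8 and 16.2 TPM. BUB1 overlapped BUB1B, and BUB1B overlapped TTK, between libraries. MAD1L1, the anchor of MAD2L1 at kinetochores, was lowest with 7.65 and 9.57 TPM. It shares 43.2% of its exonic bases with the same-strand gene ENSG00000286192, which had 1767 and 1894 counts, so its own level is uncertain. MAD2L1 exceeded MAD1L1 12.7-fold in replicate 1 and 7.40-fold in replicate 2, and 4.24-fold in mean TPM with the longest coding transcripts.

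In the chromosomal passenger complex the kinase and its targeting subunits stood far above the scaffold. BIRC5 (survivin), on chromosome 17 from 78214186 to 78225636, had 4543 counts in replicate 1 (252 CPM, 137 TPM) and 4718 in replicate 2 (254 CPM, 132 TPM), the highest mean CPM of the 40 genes. The kinase AURKB had 93.7 and 97.1 TPM and CDCA8 (borealin), which targets the complex to centromeres with BIRC5, 41.2 and 44.7 TPM. INCENP, the scaffold that activates AURKB, had 252 counts in replicate 1 (14.0 CPM, 6.49 TPM) and 330 in replicate 2 (17.8 CPM, 7.89 TPM). AURKB exceeded INCENP 14.4-fold in replicate 1 and 12.3-fold in replicate 2. BIRC5 exceeded it 15.9-fold by CPM, so this gap did not rest on gene length alone.

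Of 11 assemblies with 2 or more of the genes, 9 had a highest member more than 4 times the lowest by mean TPM, in each library alone and in the mean. The exceptions were the NDC80 complex and the corona proteins. The order of members was the same in both libraries in 10 of 11 assemblies, and 23 of 27 neighbouring pairs kept apart in every pairing of library values. With the longest coding transcript 9 assemblies again passed 4-fold, with the NDC80 complex in and the CENP-T and CENP-W pair out, and with CPM 7 did. Apart from NSL1, whose level was 4.17-fold higher with it, that length moved no gene by more than 2-fold (range 0.679 to 1.73-fold). RNA levels do not give the levels of the proteins.

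**Figure D3:**
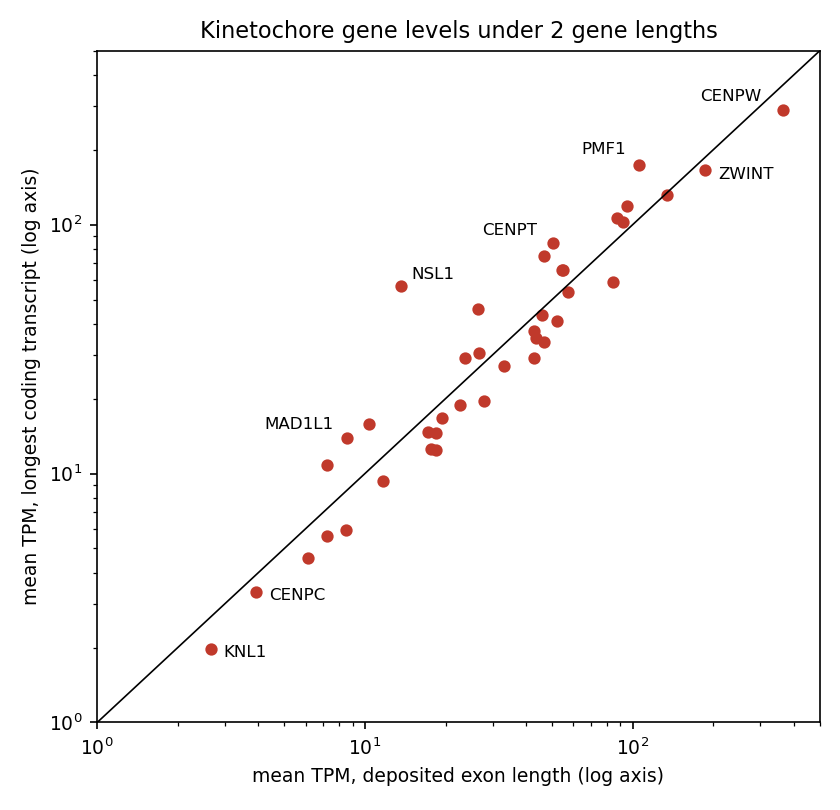
Mean TPM of each of the 40 genes with the longest coding transcript as its length (vertical) against mean TPM with the deposited exon length (horizontal), both on log axes, with the line of equality. NSL1 lies furthest from the line at 56.9 against 13.7 TPM, while CENPW stays highest and KNL1 lowest under both lengths.

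Most related lists outside the 40 genes had medians close to theirs. Of 44 genes in 5 lists of mitotic genes or of DREAM and MuvB regulators, 44 were detected (65.9% of protein-coding genes were). Their median was 31.7 TPM, and 36 stood at 10 TPM or more. Among the remaining CCAN and RZZ subunits, CENPX had 293 ± 5.21 TPM and CENPS 44.2 ± 5.17, while the RZZ subunits ZWILCH and KNTC1 had 31.1 ± 4.42 and 6.24 ± 0.713 TPM. CENPX stood 6.62-fold above its partner CENPS in mean TPM and 6.46-fold with the longest coding transcripts. Of the exonic bases of CENPS, however, 65.0% belong to other genes too. The histone-fold neighbour CENPW exceeded its partner CENPT 7.28-fold in mean TPM, but 3.44-fold with the longest coding transcripts and 1.10-fold by mean CPM. Among the CENP-A loading genes, MIS18A (99.0 ± 9.29 TPM) and OIP5 (67.4 ± 1.06) were highest, and the chaperone HJURP had 21.95 ± 1.498 TPM. Of the exonic bases of OIP5, 68.0% lie in other genes too.

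Checkpoint output genes had a median of 36.5 TPM. CDC20, the activator of the anaphase-promoting complex that MAD2L1 inhibits, had 141 ± 0.472 TPM, 1.67 times MAD2L1 in the mean. The microtubule depolymerase KIF2C had 54.3 ± 4.22 TPM, the centromere protector SGO2 8.50 ± 2.13 and the histone kinase HASPIN 7.06 ± 0.942 TPM. The anaphase-promoting complex had a median of 27.8 TPM, from ANAPC1 (3.57 ± 0.120) and ANAPC4 (6.74 ± 0.185) to its ubiquitin-conjugating partners UBE2C (309 ± 59.5) and UBE2S (317 ± 7.43 TPM). CHR hexamers near the start site stood in 1 of 15 windows of that complex and in 4 of 8 windows of the checkpoint output genes (PLK1, SGO1, SPDL1 and TRIP13). They stood in 0 of 4 windows of the remaining CCAN and RZZ subunits, 1 of 3 of the CENP-A loading genes and 0 of 8 of the DREAM and MuvB genes. Of the DREAM and MuvB genes, MYBL2 had 77.8 ± 1.46 TPM and TFDP1 51.1 ± 3.01, against 8.88 ± 0.199 for LIN37 and 3.97 ± 0.739 TPM for the CHR-binding subunit LIN54. For LIN37 the share of exonic bases that lie in other genes was 54.0%.

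Genes of the meiotic kinetochore and meiotic cohesion had a median of 0.415 TPM, against 2.88 TPM for all protein-coding genes. Of the 6 genes 3 were detected, near the 65.9% of protein-coding genes. MEIKIN, a kinetochore protein of meiosis I, had 0 counts in both libraries, and 62.0% of its exonic bases lie in other genes too. RAD21L1 had 2 counts in replicate 1 and 7 in replicate 2. REC8 had 87 and 55 counts (2.06 ± 0.758 TPM), and SYCP3 had 128 and 35 (2.40 ± 2.02 TPM).

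**Figure D4:**
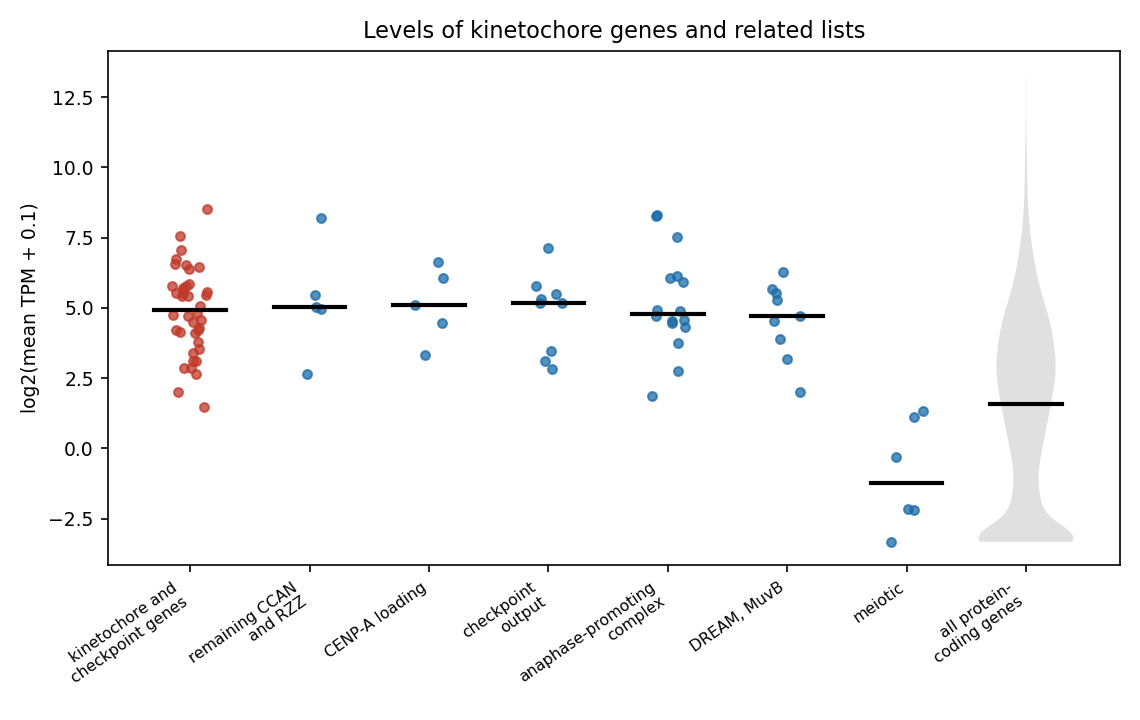
Levels as log2(mean TPM + 0.1), 1 point per gene, for the 40 kinetochore and checkpoint genes (red), 6 related lists (blue) and, as a violin, all 19890 protein-coding genes; black bars are medians. The meiotic list lies far below, and the medians of the other 5 lists lie between 26.4 and 36.5 TPM, close to the 30.5 TPM of the 40 genes.

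Between the libraries most of the 40 genes differed little. The log2 ratio of replicate 2 over replicate 1 had a median of -0.04 over the 40 genes and 0.00 over 14704 genes whose mean count was at least 50. In bulk RNA, fewer cells in mitosis and less RNA per cell cannot be told apart. With 1 library on each side a ratio has no replicate check and no p-value. For a gene with the common coefficient of variation, the SD of such a ratio is 0.32 log2. Of the 40 genes, 5 were lower in replicate 2 by 0.5 log2 or more, or 12.5%, against 8.84% of all genes, and 0 were higher by that much, against 2.86%. The 5 genes were KNL1 (-1.46), CENPK (-0.72), BUB3 (-0.57), CENPC (-0.52) and NSL1 (-0.50). Both shares are near those of all genes.

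KNL1 was the only one of the 40 past 1 log2, which 1.92% of all genes passed in that direction. It had 129 counts in replicate 2, against 355 in replicate 1. CENPK had 774 counts in replicate 2, against 1267 in replicate 1, and BUB3 2768 against 4080. At the other end MAD1L1 (0.41), ZW10 (0.40) and INCENP (0.37) were highest in replicate 2, and none passed 0.5 log2.

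The ratios moved with the GC content of the transcripts. The 40 genes were poor in GC, with a median of 42.5% in the longest coding transcript, against 49.5% for all protein-coding genes. Spearman's rho between ratio and GC content was 0.645 across the 40 genes and 0.428 across the 14547 genes of these that had a GC value. These are descriptions across genes that share both libraries. Of 11 kinetochore genes under 40% GC, 9 were lower in replicate 2 (median -0.37), and the median of 2107 genes of that GC class was -0.32. Of 11 at 50% GC or more, 10 were higher in replicate 2 (median 0.14), against a median of 0.10 for 6971 such genes. After the ratios were centred on GC content, only KNL1 stayed past 0.5 log2, at -1.16 (6.23% of all genes were lower by 0.5 log2 or more), and 0 were higher by 0.5 log2 or more, against 2.9%. CENPK then had -0.28, BUB3 -0.42, CENPC -0.21 and NSL1 -0.20. The part of GC content in these ratios was not tested further.

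**Figure D5:**
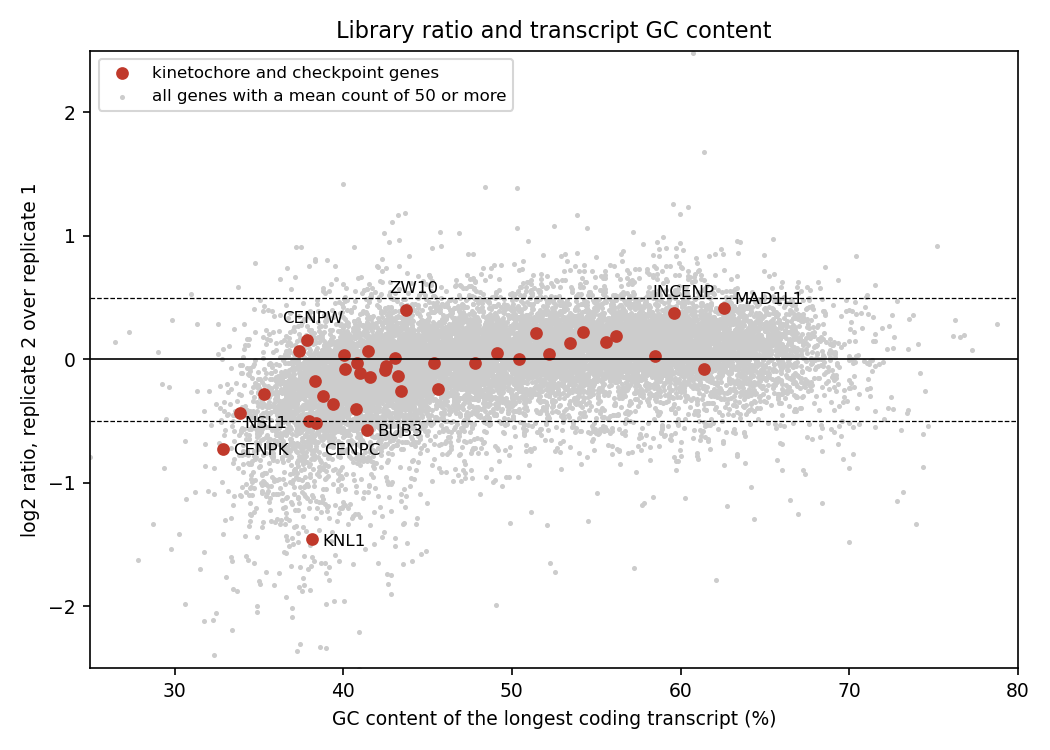
Log2 ratio of replicate 2 over replicate 1 against the GC content in percent of the longest coding transcript, for the 40 kinetochore and checkpoint genes (red) and all genes whose mean count was at least 50 (grey; at most 13 points lie outside the axes). Dashed lines mark 0.5 log2 either way; KNL1 lies at -1.46, 9 of 11 red points under 40% GC lie below 0 and 10 of 11 at 50% or more lie above it.

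Of the 40 genes, 27 share no exonic base with another gene and 10 share less than 25%. CENPO, CENPP and MAD1L1 share more. ENSG00000261061 lies wholly within exons of CENPN on the same strand and still had 156 and 70 counts, so reads over shared bases were not simply left out of both genes. Of 12 annotated pseudogenes of 10 of the genes, 10 had 0 counts in both libraries and the others had at most 2.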

How the data were processed

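RNA of untreated HEK293T cells was reverse transcribed from an oligo(dT) primer and sequenced in 2 libraries, per the labels' protocols, so RNAs without a poly(A) tail are under-represented. The authors deposited raw counts per Ensembl gene with exon coordinates and merged exon lengths. Build GRCh38, featureCounts 2.0.3, Trim Galore 0.6.7 and bcl2fastq 2.17 are listed in the submitters' processing notes. No aligner, annotation release, strand setting or overlap setting is given in the sources used.

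Of the 60664 IDs, 60463 matched a symbol. Gene types, longest coding transcripts and their GC content came from GENCODE 29 (19890 protein-coding genes), and promoter windows from RefSeq, taking for each gene the window nearest the deposited gene start. CPM used library totals and TPM the deposited exon lengths. Exon overlap came from bedtools 2.31.1. Ratios came from edgeR 4.0.16 (R 4.3.3) with a prior count of 2 and TMM factors of 1.01 for replicate 1 and 0.989 for replicate 2, for genes whose mean count was at least 50. GC centring subtracted the median of 20 GC bins. DESeq2 1.42.0 size factors were an alternative. Intervals of shares of counts are exact 95% binomial, and a count of 0 was read as up to 3 counts. The ratio step was tested on simulated data.

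With 1 group no test between groups was run. All 40 genes are named; of each related list the 2 highest and 2 lowest by mean TPM are named, and others were chosen after their values were seen. 1 gene that this rule names is not reported here. The genes, lists and alternatives were chosen with earlier results of these data known.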

Additional observations from a re-analysis of the deposited data

How the results depend on the processing

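All 40 genes stayed detected at 2 and at 5 CPM, with TMM-scaled libraries and in each library alone, and 37 of the 37 left without genes sharing 25% or more of their exonic bases. The level of the 40 genes above all protein-coding genes, 3.36 log2 with a pseudocount of 0.1, ranged from 3.39 to 3.41 in single libraries. It was 3.65 without overlapping genes, 3.44 with the longest coding transcript, 3.02 with a pseudocount of 1, 2.70 with CPM and 1.82 among detected genes alone. The count of 5 genes past 0.5 log2 between libraries became 1 after centring on GC content and was 4 or 5 in the other 7 alternatives. The median ratio ranged from -0.08 to 0.01. The count of 9 assemblies spread over 4-fold ranged from 7 to 9. Leaving out a library was not possible for ratios, which need both. No paired analysis was possible because there is 1 group. The lowest counts, 129 for KNL1 and 204 for SKA1, limit the precision of those genes most.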
